A study of Mus musculus with 20 samples.

Results

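The proteasome is the large protease that takes apart proteins tagged with ubiquitin. Its core is a barrel of alpha and beta rings whose beta subunits cut peptide bonds inside the barrel, its cap recognises, unfolds and feeds in ubiquitylated proteins, and smaller activators can open the barrel without ubiquitin. In skeletal muscle the ubiquitin-proteasome route is best known for breaking down myofibrillar proteins when a muscle is unloaded or denervated.

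The proteasome subunit genes described here are the 41 genes on the array whose name in the deposited files begins with Psma, Psmb, Psmc, Psmd or Psme followed by a number, out of 25536 genes measured. The 18 core genes are 8 of the alpha ring, 7 constitutive beta subunits and 3 inducible beta subunits. The 20 genes counted with the cap are 6 ATPases and 14 others, and 3 are activators. Some of these 14, Psmd5 and Psmd10 among them, are chaperones of cap assembly, and all 41 genes are called subunits below. They were covered by 60 probes, 15 genes had more than 1 probe, and each gene is represented by its brightest probe over all 20 arrays. All 41 passed the filter on dim probes, and 40 of them were well above background on all 20 arrays. The exception was Psma8, an alpha subunit known from testis, which was well above background on 17 arrays. No probe carried the name Psme2, the partner of Psme1.

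The RNA came from 10 male ICR mice aged 6 months. In 5 of them the hind limbs had been lifted off the cage floor by the tail for 24 h (hind-limb suspension, HLS), and the other 5 walked freely as controls. Soleus, a slow postural muscle, and gastrocnemius, a mixed and mainly fast muscle, were taken from every mouse, which gives 4 groups of 5 arrays: soleus HLS, soleus control, gastrocnemius HLS and gastrocnemius control. No allele or drug differs between the groups, and all mice were housed singly.

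All levels below are log2 of the probe's intensity relative to the 75th percentile of its array, and differences are log2 differences of group means with the standard error of the limma fit. That percentile lay between 385.1 and 735 intensity units. Arrays of 1 group correlated at a mean r of 0.975 to 0.984. Spike-in RNA added in equal amount stood on this scale at a group mean of 0.76 in HLS and 0.45 in control soleus, and of 0.68 in HLS and 1.74 in control gastrocnemius, so a difference between groups is a difference relative to the other transcripts and not per amount of RNA. The summed signal of 4 slow-fibre markers was 1015 to 1379 times the percentile intensity on soleus control arrays and 216.1 to 417.3 on gastrocnemius control arrays. One array stood apart from its label: soleus HLS 1 had a slow-fibre sum of 520.5 against a median of 1194 in its group, and a fast-fibre sum of 2250 that was the highest of all 20 arrays. Fast-fibre sums overlapped between the muscles, at 1048 to 1601 in soleus control and 1362 to 1584 in gastrocnemius control. Soleus HLS 1 correlated at a mean r of 0.975 with its own group and of 0.969 with gastrocnemius HLS. Many of the results that include this array are therefore also given without it.

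Promoter sequences of 4 subunits are shown first, because Psme3 and Psme4 are the activators that differed between the muscles, and because the windows of the catalytic subunits Psmb5 and Psmb6 hold the element bound by Nfe2l1, whose own transcript fell under HLS. They are the RefSeq windows of GRCm38.p6 from 250 bases before to 50 bases after the start of the gene, on the strand of the gene. Capitals mark matches on either strand to TGACNNNGC, the antioxidant-response type of element bound by Nfe2l1, or to CCAAT, the CCAAT box. Psmb5 lies at chr14:54617946-54618245 on the minus strand, Psmb6 at chr11:70525107-70525406 on the plus strand, Psme3 at chr11:101315963-101316262 on the plus strand and Psme4 at chr11:30771525-30771824 on the plus strand.
Psmb5: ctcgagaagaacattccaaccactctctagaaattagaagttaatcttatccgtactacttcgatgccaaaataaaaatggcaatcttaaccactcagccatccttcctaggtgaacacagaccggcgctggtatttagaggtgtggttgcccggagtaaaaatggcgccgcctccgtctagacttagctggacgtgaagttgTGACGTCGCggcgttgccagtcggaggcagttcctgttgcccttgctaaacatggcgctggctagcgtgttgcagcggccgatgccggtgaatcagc
Psmb6: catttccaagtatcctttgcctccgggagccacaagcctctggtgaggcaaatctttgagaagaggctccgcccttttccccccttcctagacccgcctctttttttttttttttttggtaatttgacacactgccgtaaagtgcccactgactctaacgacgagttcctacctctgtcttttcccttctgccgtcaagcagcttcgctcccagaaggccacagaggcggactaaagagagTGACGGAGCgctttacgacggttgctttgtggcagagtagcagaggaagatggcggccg
Psme3: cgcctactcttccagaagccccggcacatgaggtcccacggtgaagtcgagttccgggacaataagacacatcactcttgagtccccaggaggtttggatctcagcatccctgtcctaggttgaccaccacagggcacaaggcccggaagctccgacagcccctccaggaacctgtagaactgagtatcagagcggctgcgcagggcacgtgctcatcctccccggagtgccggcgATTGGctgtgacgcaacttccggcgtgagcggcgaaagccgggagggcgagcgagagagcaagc
Psme4: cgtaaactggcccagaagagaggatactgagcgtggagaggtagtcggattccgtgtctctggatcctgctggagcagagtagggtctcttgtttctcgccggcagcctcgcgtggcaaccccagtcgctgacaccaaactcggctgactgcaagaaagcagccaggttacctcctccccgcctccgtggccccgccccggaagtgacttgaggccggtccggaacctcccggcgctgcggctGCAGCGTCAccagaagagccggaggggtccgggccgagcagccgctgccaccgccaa
The windows of Psmb5, Psmb6 and Psme4 each hold TGACNNNGC, with its first printed base 47, 9 and 7 bases before the start, and Psme3 holds a CCAAT box on the opposite strand. Windows were found for 34 of the 41 genes (36 windows). TGACNNNGC occurred in 6 of these 36 windows (16.7%), against 12.4% of the 32851 windows of all genes. CCAAT occurred in 13 (36.1%), against 37.4% of all windows, and the interferon-type element, GAAA followed after 2 bases by another GAAA, in 4 (11.1%), those of Psmb3, Psmd4, Psmd9 and Psme1, against 3.44% of all windows. A match describes the letters of a window and is not a measured binding site.

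The first question was whether 24 h of HLS changed the subunit transcripts in soleus, the muscle that loses most of its postural load. None of the 41 subunits passed in soleus HLS against soleus control in limma at an adjusted p under 0.05, where 5.91% of all genes passed, and 4 had an unadjusted p under 0.05, where 17.9% of all genes did. The median difference of the 41 was 0.04, beside 0.05 for all genes, and 28 of the 41 were positive. Without soleus HLS 1 the median was -0.04 with 17 positive, and with normexp background correction it was 0.00 with 20 positive. The intervals leave little room for large changes: the 95% interval of every one of the 41 lay within a 2-fold change in either direction, and that of 36 within 1.5-fold. Without soleus HLS 1 again none of the 41 passed, 3 had an unadjusted p under 0.05, and 5.47% of all genes passed.

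**Figure D1:**
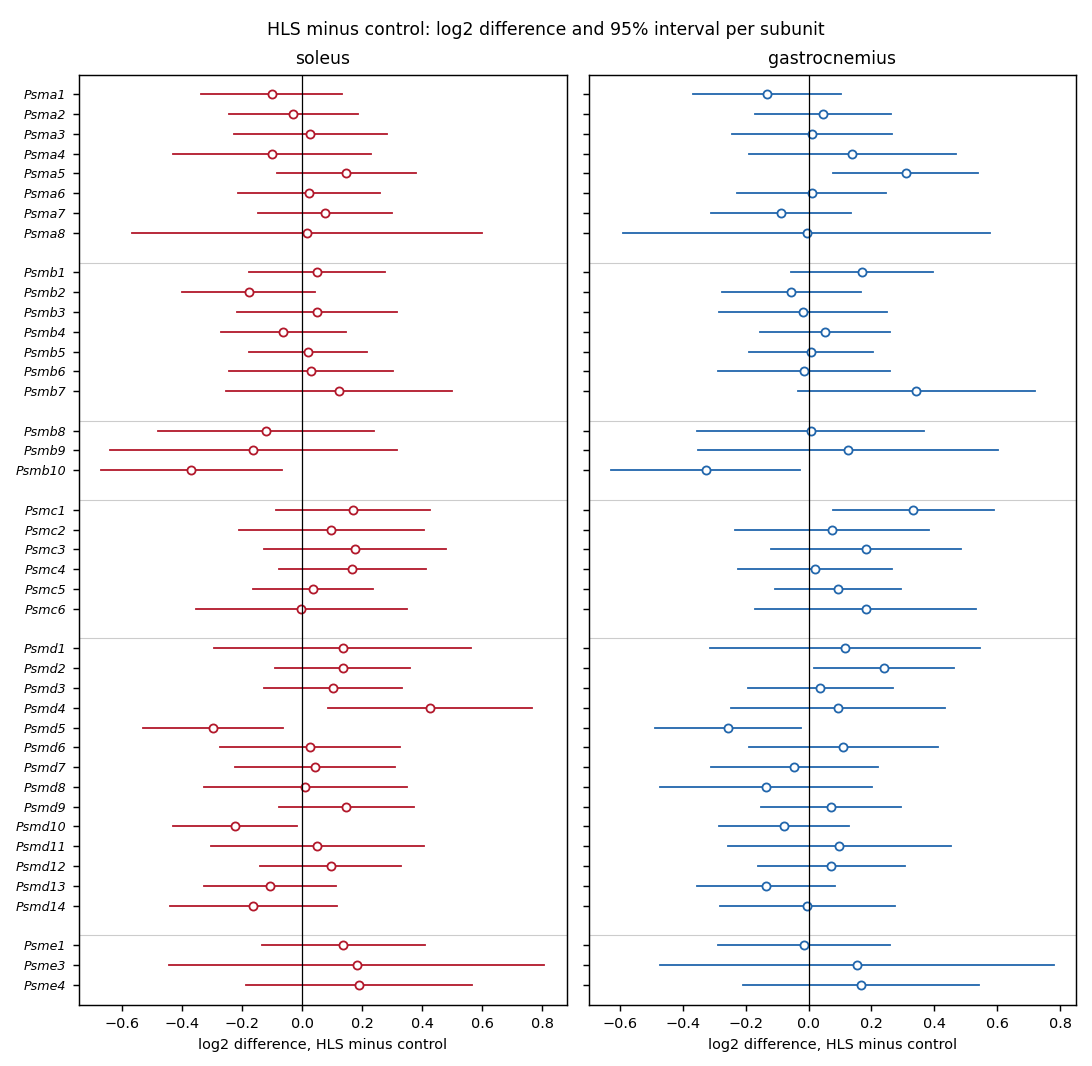
Log2 difference of HLS minus control for each of the 41 subunits in soleus (left) and gastrocnemius (right); points are differences of means over 5 and 5 arrays and bars are 95% intervals, and all points are open because none passed at an adjusted p under 0.05. Rows run from the alpha ring at the top through the beta subunits and the cap to the activators, and every interval stays between -0.67 and 0.81 in soleus and between -0.63 and 0.78 in gastrocnemius.

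In the core, the constitutive catalytic subunits overlapped between the groups in soleus. Psmb5, the chymotrypsin-like site, stood at 4.10, 3.84, 3.91, 4.07 and 3.73 on the 5 soleus HLS arrays and at 3.78, 4.05, 3.92, 3.89 and 3.91 on the 5 soleus control arrays. The groups overlapped, and the difference was 0.02 ± 0.09 (adjusted p = 0.95 in limma). Psmb6, the caspase-like site, stood at 5.06, 4.99, 5.08, 5.43 and 5.04 in soleus HLS and at 5.10, 5.27, 4.96, 5.35 and 4.78 in soleus control, again overlapping. Psmb7, the trypsin-like site, stood at 3.20, 2.41, 2.38, 2.51 and 2.17 in soleus HLS and at 2.44, 1.99, 2.51, 2.38 and 2.73 in soleus control. Its highest value was on soleus HLS 1, and the other HLS arrays lay inside the control range.

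The inducible subunits, which replace these 3 sites in the immunoproteasome, were all on the negative side in soleus without passing. Psmb10, the counterpart of Psmb7, stood at 2.80, 3.07, 3.21, 3.26 and 2.60 in soleus HLS and at 3.15, 3.32, 3.26, 3.85 and 3.22 in soleus control. The groups overlapped narrowly, and the difference was -0.37 ± 0.14 (adjusted p = 0.16 in limma). Psmb8, the counterpart of Psmb5, stood at 0.65, 0.83, 0.73, 0.61 and 0.34 in soleus HLS and at 0.63, 0.32, 0.68, 1.45 and 0.69 in soleus control. Psmb9, the counterpart of Psmb6, stood at 0.18, 0.16, 0.16, -0.10 and -0.53 in soleus HLS and at -0.16, -0.32, 0.05, 1.06 and 0.07 in soleus control. All 3 inducible subunits were at their group's highest on soleus control 4, and the ranges of Psmb8 and Psmb9 overlapped.

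**Figure D2:**
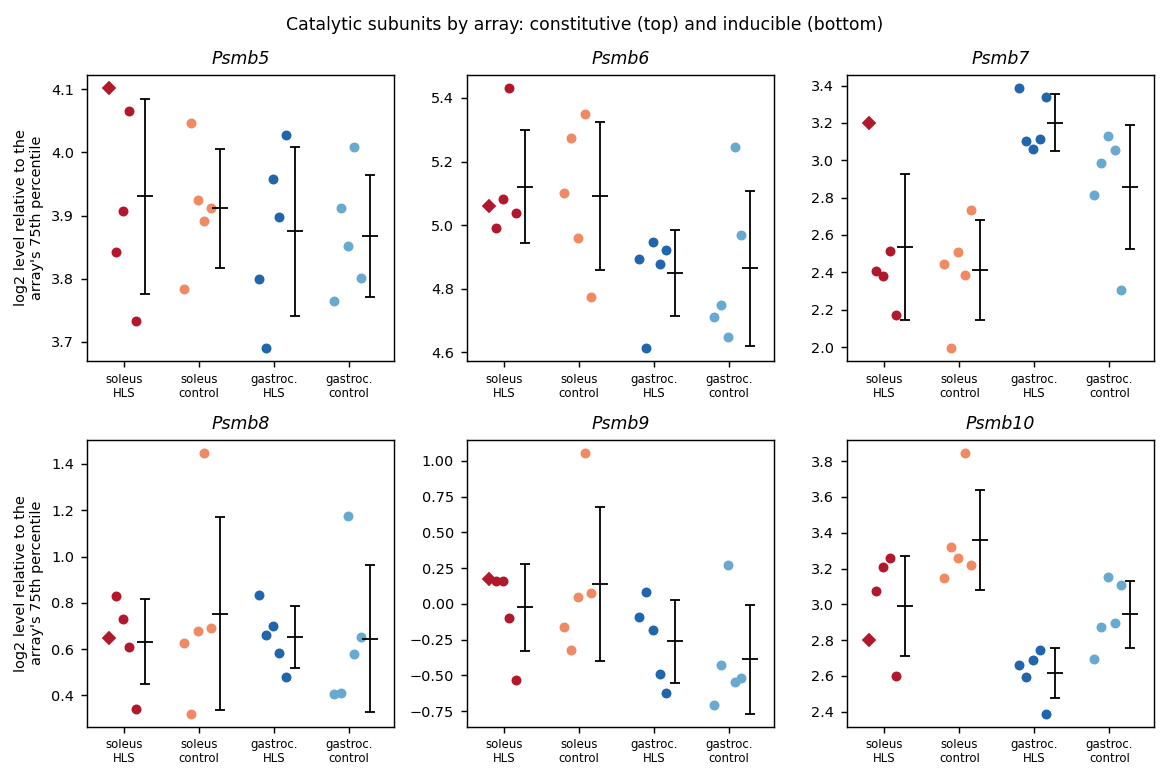
Log2 level relative to the array's 75th percentile of the 3 constitutive catalytic subunits (top) and their inducible counterparts (bottom) on every array, with soleus HLS, soleus control, gastrocnemius HLS and gastrocnemius control from left to right. Points are single arrays, the diamond is soleus HLS 1, and bars are the mean ± SD of 5 arrays; the Psmb5 groups lie on top of each other, and the Psmb10 means are lower in HLS than in control in both muscles.

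In the cap, Psmd4, a ubiquitin receptor, was the subunit whose groups did not overlap. It stood at 3.65, 3.21, 3.31, 3.51 and 3.26 in soleus HLS and at 2.99, 2.84, 2.99, 2.83 and 3.15 in soleus control. Every HLS array was above every control array, which held for 1 of the 41 subunits and for 2.15% of all genes, while below control this held for 0 subunits and 2.88% of all genes, and the difference was 0.43 ± 0.16 (adjusted p = 0.15 in limma). Psmd5, a chaperone of cap assembly, stood at 0.98, 0.91, 1.14, 1.37 and 0.87 in soleus HLS and at 1.38, 1.42, 1.36, 1.52 and 1.10 in soleus control. The groups overlapped, the difference was -0.30 ± 0.11 (adjusted p = 0.14 in limma), and this was the lowest adjusted p of the 41. Leaving out soleus HLS 4 moved Psmd5 past the threshold, at -0.38 (adjusted p = 0.045 in limma), as the only subunit.

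The other cap subunits followed here did not separate the groups. Psmc4, an ATPase of the unfolding ring, stood at 3.41, 3.12, 3.12, 3.25 and 3.09 in soleus HLS and at 3.12, 2.77, 3.13, 2.98 and 3.14 in soleus control. Psmd11, a lid subunit that ties the cap to the core, stood at 4.86, 4.11, 4.22, 4.09 and 4.27 in soleus HLS and at 4.33, 3.98, 4.60, 3.85 and 4.54 in soleus control. Psmd14, the lid enzyme that removes ubiquitin from substrates, stood at 3.37, 2.96, 3.05, 3.07 and 2.80 in soleus HLS and at 3.14, 2.89, 3.25, 3.52 and 3.27 in soleus control. Their adjusted p-values in limma were 0.51, 0.92 and 0.59, and all 3 were highest in their HLS group on soleus HLS 1.

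In gastrocnemius, which the same tests asked about in the same mice, none of the 41 subunits passed in HLS against control in limma either, where 3.16% of all genes passed, 1.15% higher and 2.01% lower. The groups of 0 subunits were apart, against 2.91% of all genes with HLS above control and 4.48% below. An unadjusted p under 0.05 was reached by 5 subunits, and by 14.6% of all genes. The median difference of the 41 was 0.05, beside 0.01 for all genes. All 41 intervals lay within 2-fold, and 35 within 1.5-fold.

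The lowest adjusted p belonged to Psma5, a subunit of the alpha ring. It stood at 5.35, 4.77, 5.23, 5.00 and 5.28 in gastrocnemius HLS and at 4.56, 4.81, 4.75, 5.06 and 4.92 in gastrocnemius control. The ranges overlapped, with gastrocnemius HLS 2 the lowest HLS array, and the difference was 0.31 ± 0.11 (adjusted p = 0.16 in limma). Without that array Psma5 was the only subunit to pass, at 0.40 (adjusted p = 0.048 in limma). Psmc1, a cap ATPase, stood at 4.00, 3.48, 3.77, 3.66 and 3.89 in gastrocnemius HLS and at 3.24, 3.38, 3.48, 3.71 and 3.33 in gastrocnemius control. The ranges overlapped, with gastrocnemius control 4 the highest control array, and the difference was 0.33 ± 0.12 (adjusted p = 0.17 in limma).

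Psmd5 and Psmb10 were also below control here. Psmd5 stood at 1.04, 0.82, 0.85, 0.78 and 0.96 in gastrocnemius HLS and at 0.98, 1.22, 1.11, 1.38 and 1.03 in gastrocnemius control. Its groups overlapped, with a difference of -0.26 ± 0.11 (adjusted p = 0.27 in limma). Psmb10 stood at 2.66, 2.60, 2.69, 2.75 and 2.39 in gastrocnemius HLS and at 2.69, 2.87, 3.15, 2.90 and 3.11 in gastrocnemius control. Its groups overlapped through gastrocnemius control 1, with a difference of -0.33 ± 0.14 (adjusted p = 0.28 in limma).

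The HLS and control groups of the remaining catalytic subunits overlapped in gastrocnemius. Psmb5 stood at 3.80, 3.69, 3.96, 3.90 and 4.03 in gastrocnemius HLS and at 3.77, 3.91, 3.85, 4.01 and 3.80 in gastrocnemius control, a difference of 0.01. Psmb6 stood at 4.89, 4.61, 4.95, 4.88 and 4.92 in gastrocnemius HLS and at 4.71, 4.75, 4.65, 5.24 and 4.97 in gastrocnemius control, a difference of -0.01. Psmb7 stood at 3.39, 3.10, 3.06, 3.11 and 3.34 in gastrocnemius HLS and at 2.82, 2.99, 3.13, 3.05 and 2.30 in gastrocnemius control. Psmb7 had the highest difference of the 41, 0.34 ± 0.18 (adjusted p = 0.40 in limma), with overlapping groups. Psmb8 stood at 0.83, 0.66, 0.70, 0.59 and 0.48 in gastrocnemius HLS and at 0.41, 0.41, 1.18, 0.58 and 0.65 in gastrocnemius control. Psmb9 stood at -0.09, 0.09, -0.18, -0.49 and -0.62 in gastrocnemius HLS and at -0.71, -0.43, 0.27, -0.54 and -0.52 in gastrocnemius control. Both overlapped fully, and both peaked on gastrocnemius control 3 within their control group.

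Psmc4 stood at 3.36, 2.81, 3.25, 3.13 and 3.31 in gastrocnemius HLS and at 3.15, 3.21, 3.17, 3.36 and 2.87 in gastrocnemius control. Psmd4 stood at 3.47, 3.00, 3.41, 3.41 and 3.71 in gastrocnemius HLS and at 3.67, 3.04, 3.07, 3.82 and 2.93 in gastrocnemius control. The non-overlap that Psmd4 showed in soleus was therefore not repeated in gastrocnemius, where its difference was 0.09 ± 0.16 (adjusted p = 0.88 in limma). Psmd14 stood at 3.43, 2.91, 3.44, 3.19 and 3.44 in gastrocnemius HLS and at 3.15, 3.21, 3.36, 3.50 and 3.20 in gastrocnemius control, which overlap.

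Whether HLS acted differently on the subunits in the 2 muscles was tested as the HLS difference in soleus minus the HLS difference in gastrocnemius. None of the 41 passed in limma, where 0.00783% of all genes did, none had an unadjusted p under 0.05, where 5.74% of all genes did, and the lowest adjusted p was 0.92. The test is less precise than either single comparison: all 41 intervals lay within 2-fold, and 31 within 1.5-fold. Psmd4, whose groups overlapped in gastrocnemius and not in soleus, had a difference between the muscles of 0.33 and an interval of -0.15 to 0.82. Psma7, a subunit of the alpha ring, stood at 5.43, 5.23, 5.56, 5.51 and 5.47 in soleus HLS and at 5.45, 5.29, 5.31, 5.37 and 5.38 in soleus control, and at 5.52, 4.96, 5.29, 5.14 and 5.45 in gastrocnemius HLS and at 5.23, 5.31, 5.24, 5.51 and 5.51 in gastrocnemius control. Psma4, also of the alpha ring, stood at 2.24, 1.81, 1.70, 1.85 and 1.55 in soleus HLS and at 1.89, 1.43, 2.08, 2.20 and 2.05 in soleus control, and at 2.32, 1.84, 2.23, 2.10 and 2.32 in gastrocnemius HLS and at 2.07, 2.04, 2.13, 2.27 and 1.60 in gastrocnemius control. The HLS and control groups of both genes overlapped in both muscles, and the differences between the muscles were 0.17 for Psma7 and -0.24 for Psma4 (adjusted p = 0.95 for each in limma). Without soleus HLS 1 again none of the 41 passed (lowest adjusted p = 0.82 in limma), where 0.0509% of all genes did. The median of the 41 was then -0.11 with 12 positive, against 0.01 with 21 positive on all arrays, and Psma4 stood at -0.34.

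Slides and scan days did not separate HLS from control fully, so the comparison could be repeated inside them. On slide 5, which held 3 soleus HLS arrays and 1 soleus control array, the median difference of the 41 was -0.02, and on scan day 2, with 3 HLS and 5 control arrays, it was 0.08. Without soleus HLS 1 these medians were -0.07 and -0.01. On scan day 1, which held 1 gastrocnemius HLS array and all 5 gastrocnemius control arrays, it was 0.26, beside 0.00 for all genes. That array, gastrocnemius HLS 1, had a median deviation of the 41 from their group means of 0.19, and the part of single arrays in the median was not tested. Across all 20 arrays this deviation ran from -0.28 on gastrocnemius HLS 2 to 0.21 on soleus HLS 1.

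The genes that had other probes gave a partly different picture. When each of the 60 probes was tested as its own feature among 37373, a dim second probe of Psmc2 was higher in HLS in soleus (0.75 ± 0.15, adjusted p = 0.0038 in limma) and in gastrocnemius (0.85 ± 0.15, adjusted p = 0.0029 in limma). This probe was well above background on 18 arrays, and the brightest probe of Psmc2, an ATPase of the cap, differed by 0.10 and 0.07. The dimmest probe of Psmd12 was lower in soleus HLS (-0.57 ± 0.13, adjusted p = 0.010 in limma), while its brightest probe differed by 0.09. No other probe of a subunit passed in either HLS comparison. A dimmer second probe of Psmd4 lay just outside the threshold in soleus, at 0.475 ± 0.14 (adjusted p = 0.050 in limma), and at -0.22 in gastrocnemius, and the mean over both Psmd4 probes passed in soleus at 0.45 (adjusted p = 0.011 in limma).

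Genes that assemble, feed or regulate the proteasome did include some that passed under HLS. Of 41 listed genes for assembly, ubiquitin receptors and shuttles, the unfolding segregase, transcription factors and ubiquitin, 39 were measured. In soleus HLS 2 rose and 3 fell, in gastrocnemius HLS 1 rose and 2 fell, and no gene of the list passed in the difference between the muscles. That is 12.8% of the list in soleus, against 5.91% of all genes, and 7.69% in gastrocnemius, against 3.16%. Of these genes 3 passed in both muscles.

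Nfe2l1, the transcription factor that raises proteasome subunit genes when proteasome activity is short, fell in both muscles. It stood at 4.98, 5.29, 5.25, 5.17 and 5.14 in soleus HLS and at 6.00, 5.79, 5.76, 6.06 and 5.64 in soleus control. No HLS array reached the lowest control array, and the difference was -0.68 ± 0.10 (adjusted p = 0.00029 in limma). In gastrocnemius it stood at 5.08, 4.62, 4.84, 4.65 and 4.72 in HLS and at 5.42, 5.24, 5.35, 5.34 and 5.38 in control. Again the groups did not overlap, and the difference was -0.56 ± 0.10 (adjusted p = 0.0037 in limma). The difference was -0.68 within scan day 2 in soleus (adjusted p = 0.065 in limma) and -0.26 within scan day 1 in gastrocnemius (adjusted p = 0.62 in limma), where 1 HLS array stood against 5 control arrays. With slide as a block Nfe2l1 did not pass, at -0.47 in soleus and -0.27 in gastrocnemius. These estimates rest on soleus control 5 and gastrocnemius HLS 1, the only arrays of their groups on a slide shared with the other condition.

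Ddi2, the protease that cuts Nfe2l1 into its active form, rose in both muscles. It stood at 1.82, 0.68, 0.75, 0.66 and 1.15 in soleus HLS and at -0.08, -0.02, -0.09, -0.33 and 0.13 in soleus control, without overlap. The difference was 1.09 ± 0.19 (adjusted p = 0.00093 in limma). In gastrocnemius it stood at 2.14, 1.30, 1.71, 1.77 and 1.69 in HLS and at 0.62, 0.63, 0.83, 1.00 and 0.83 in control, also without overlap, with a difference of 0.94 ± 0.19 (adjusted p = 0.0064 in limma). A dimmer second Ddi2 probe differed by 0.20 in soleus and 0.38 in gastrocnemius and did not pass, and the mean over both probes gave 0.64 (adjusted p = 0.066 in limma) and 0.66 (adjusted p = 0.089 in limma). Neither call held with slide as a block, which rests on soleus control 5 and gastrocnemius HLS 1. With scan day as a block Ddi2 differed by 1.16 in soleus (adjusted p = 0.0036 in limma). In gastrocnemius it then differed by 1.36 without passing, an estimate that rests on gastrocnemius HLS 1. The highest HLS value of Ddi2 in soleus was on soleus HLS 1, and without that array the difference was 0.89 and still passed.

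**Figure D3:**
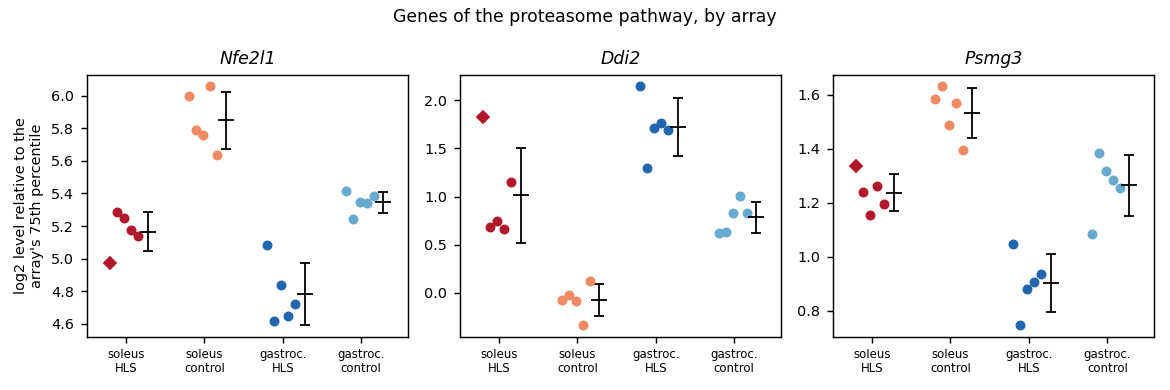
Log2 level relative to the array's 75th percentile of Nfe2l1, Ddi2 and Psmg3 on every array, with soleus HLS, soleus control, gastrocnemius HLS and gastrocnemius control from left to right. Points are single arrays, the diamond is soleus HLS 1, and bars are the mean ± SD of 5 arrays; HLS and control do not overlap for Nfe2l1 and Ddi2 in either muscle, and the Psmg3 means are lower in HLS than in control in both.

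Psmg3, a chaperone of core assembly, stood at 1.34, 1.24, 1.16, 1.26 and 1.19 in soleus HLS and at 1.58, 1.63, 1.49, 1.57 and 1.39 in soleus control, and at 1.05, 0.75, 0.88, 0.91 and 0.93 in gastrocnemius HLS and at 1.08, 1.39, 1.32, 1.28 and 1.25 in gastrocnemius control. The groups did not overlap in either muscle. Psmg3 fell by 0.30 in soleus (adjusted p = 0.042 in limma) and by 0.36 in gastrocnemius (adjusted p = 0.020 in limma). Ube3c, a ubiquitin ligase that sits on the cap, fell by 0.42 in soleus (adjusted p = 0.018 in limma). The Psmg3 calls were lost without any 1 of 8 soleus arrays or any 1 of 4 gastrocnemius arrays (adjusted p up to 0.096 in limma). Both were also lost when slide was the block and when scan day was. The slide blocks and the gastrocnemius scan day block rest on the single arrays named above. In soleus the call was lost under quantile normalization and within scan day 2 as well. Over all alternatives Psmg3 differed by -0.34 to -0.15 in soleus and by -0.41 to -0.22 in gastrocnemius. The Ube3c call was lost without soleus HLS 5 or soleus control 4 (adjusted p = 0.053 and 0.056 in limma). A second Ube3c probe differed by -0.06 (adjusted p = 0.91 in limma), the mean over both gave -0.24 (adjusted p = 0.29 in limma), and scan day as a block gave -0.37 (adjusted p = 0.12 in limma).

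None of 10 measured partners of the inducible subunits in antigen processing, among them Tap1, B2m and Irf1, passed in either HLS comparison. Of 20 leukocyte markers, whose cells carry the inducible subunits, none passed either, and their summed signal was 29.79 to 91.29 times the percentile intensity in soleus HLS against 41.13 to 75.63 in soleus control, and 38.78 to 54.31 in gastrocnemius HLS against 37.89 to 50.01 in gastrocnemius control. The lowest sum, 29.79, was that of soleus HLS 1, and a single marker, Lyz2, made up most of every sum. The part of leukocytes in the values of Psmb8, Psmb9 and Psmb10 was not tested.

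The second question was how the muscles differ. In HLS mice, 8 of the 41 subunits differed between soleus and gastrocnemius in limma at an adjusted p under 0.05, all lower in soleus, where 30.9% of all genes passed and 17.6% passed and were lower. In control mice 5 of the 41 passed, 2 higher and 3 lower in soleus, where 33.5% of all genes passed, 12.6% higher and 20.9% lower. The subunits' total share was 19.5% in HLS mice and 12.2% in control mice, below that of all genes, but the 19.5% lower in soleus in HLS mice was close to the 17.6% of all genes. At an unadjusted p under 0.05 the counts were 13 in HLS mice, against 41.8% of all genes, and 14 in control mice, against 43.7%. Psme3, Psme4 and Psmd1 were lower in soleus in both conditions. In whole muscle, fewer cells of a type and less RNA per cell cannot be told apart.

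The count in HLS mice depended on soleus HLS 1. Without it 12 subunits passed, 1 higher and 11 lower in soleus, 8 of them shared with the 8 above, where 31.9% of all genes passed. Leaving out other single arrays gave 5 without gastrocnemius HLS 1, 5 without gastrocnemius HLS 3, 3 without gastrocnemius HLS 5, 4 without soleus HLS 2, 4 without soleus HLS 3, 4 without soleus HLS 4 and 5 without soleus HLS 5. In control mice the count was 2 without gastrocnemius control 1, 2 without gastrocnemius control 2, 2 without gastrocnemius control 4, 3 without soleus control 4 and 8 without soleus control 5. Under quantile normalization the split turned fully to one side, with 0 higher and 14 lower in soleus in control mice and 0 higher and 13 lower in HLS mice. Under that scaling 31.4% of all genes passed in control mice and 32.4% in HLS mice. How many of all genes passed without the other single arrays was not counted.

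**Figure D4:**
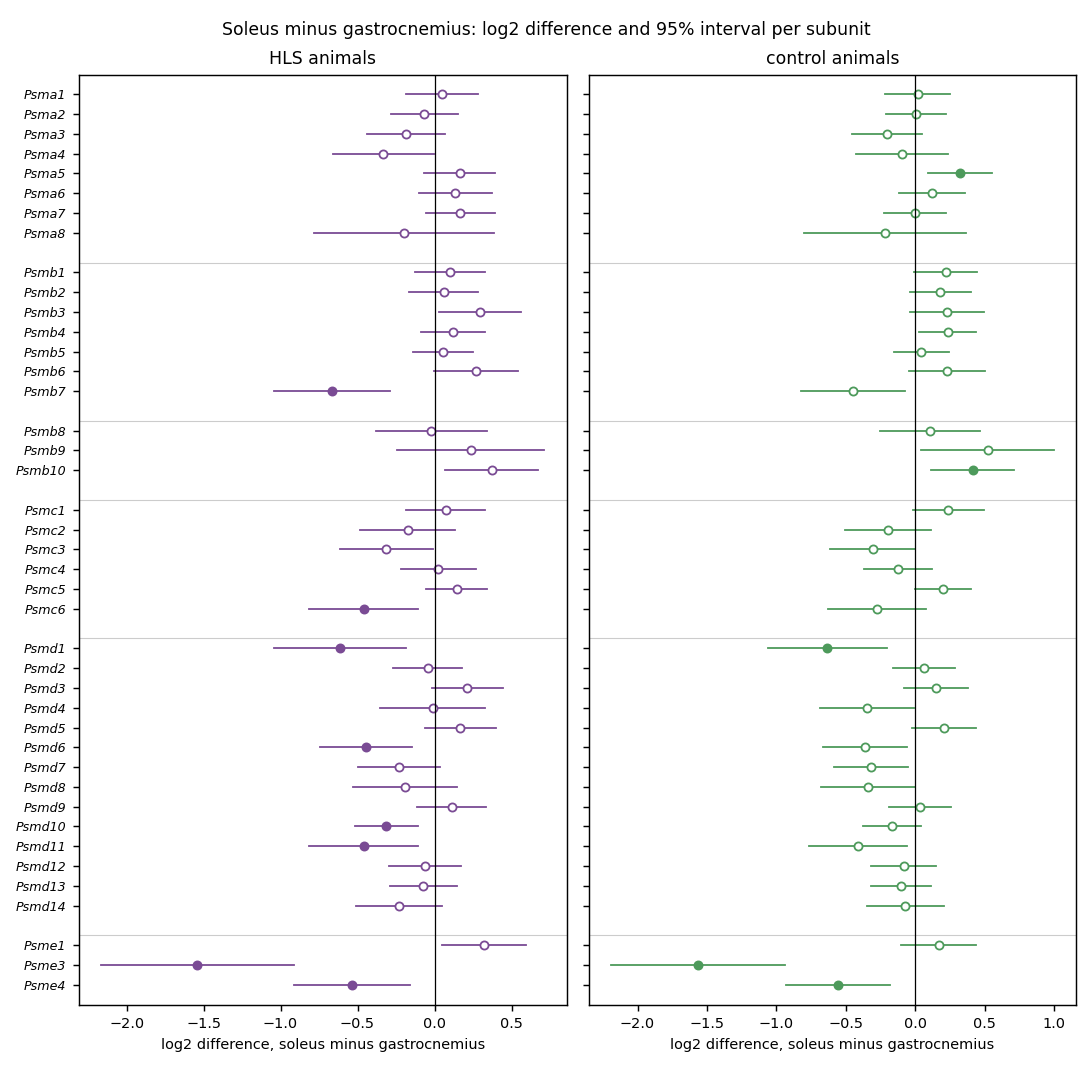
Log2 difference of soleus minus gastrocnemius for each of the 41 subunits in HLS animals (left) and control animals (right); points are differences of means over 5 and 5 arrays, bars are 95% intervals, and filled points passed at an adjusted p under 0.05 in limma. Rows run from the alpha ring at the top to the activators at the bottom, where Psme3 stands at -1.54 in HLS animals and at -1.57 in control animals.

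The largest difference among the subunits was that of Psme3, the activator of nuclear proteasomes. In HLS mice it stood at 5.35, 2.99, 3.98, 3.70 and 3.25 in soleus and at 5.67, 5.28, 5.34, 5.17 and 5.50 in gastrocnemius. The groups overlapped only through soleus HLS 1, and the difference was -1.54 ± 0.30, 2.91-fold lower in soleus (adjusted p = 0.00081 in limma). Without that array it was -1.91 ± 0.20 (adjusted p = 2.4e-06 in limma). In control mice Psme3 stood at 4.18, 3.65, 3.36, 3.24 and 3.92 in soleus and at 5.24, 5.28, 4.93, 5.54 and 5.21 in gastrocnemius. These groups did not overlap, which held for 3 of the 41 subunits on the lower side and for 13.3% of all genes, and the difference was -1.57 ± 0.30, 2.96-fold lower in soleus (adjusted p = 6e-04 in limma). Within each of the 10 mice Psme3 was lower in soleus than in gastrocnemius.

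No HLS response of Psme3 passed in either muscle. It differed by 0.18 ± 0.30 between soleus HLS and soleus control, or by -0.19 ± 0.20 without soleus HLS 1, and by 0.15 ± 0.30 between gastrocnemius HLS and gastrocnemius control. The soleus difference minus the gastrocnemius difference was 0.03, with an interval of -0.86 to 0.91, and -0.35 ± 0.28 without soleus HLS 1.

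Psme4, the large activator that caps the core directly and acts in DNA repair and spermatogenesis, showed a smaller difference in the same direction. In HLS mice it stood at 6.04, 4.85, 5.25, 5.13 and 5.19 in soleus and at 6.21, 5.38, 5.84, 5.65 and 6.05 in gastrocnemius. Here too soleus HLS 1 alone lay inside the gastrocnemius range, and the difference was -0.54 ± 0.18 (adjusted p = 0.029 in limma), or -0.72 ± 0.15 without it (adjusted p = 0.0011 in limma). In control mice it stood at 5.18, 5.12, 4.86, 5.19 and 5.16 in soleus and at 5.81, 5.63, 5.40, 5.84 and 5.62 in gastrocnemius. The control groups did not overlap, and the difference was -0.56 ± 0.18 (adjusted p = 0.022 in limma). The control call was lost in 4 of 21 alternatives: without gastrocnemius control 1, gastrocnemius control 4 or soleus control 3, and when scan day was the block. The HLS call was lost in 10 of 23, among them within scan day 2, with or without soleus HLS 1. Over all alternatives Psme4 differed by -0.70 to -0.08 in control mice and by -0.72 to -0.35 in HLS mice. Psme4 was lower in soleus in 10 of 10 mice. Its 4 probes, tested singly, were all lower in soleus, by -0.41 to -0.56 in HLS mice and by -0.10 to -0.57 in control mice, and 4 of them passed in HLS mice and 2 in control mice.

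Psme1, a subunit of the interferon-inducible activator of the cytoplasm, did not follow the other activators. In HLS mice it stood at 3.57, 3.59, 3.61, 3.75 and 3.22 in soleus and at 2.91, 3.32, 3.24, 3.45 and 3.22 in gastrocnemius. In control mice it stood at 3.24, 3.34, 3.54, 3.18 and 3.75 in soleus and at 3.10, 3.27, 3.47, 3.32 and 3.05 in gastrocnemius. The groups overlapped in both conditions, with differences of 0.32 ± 0.13 (adjusted p = 0.067 in limma) and 0.17 ± 0.13 (adjusted p = 0.34 in limma) towards soleus.

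**Figure D5:**
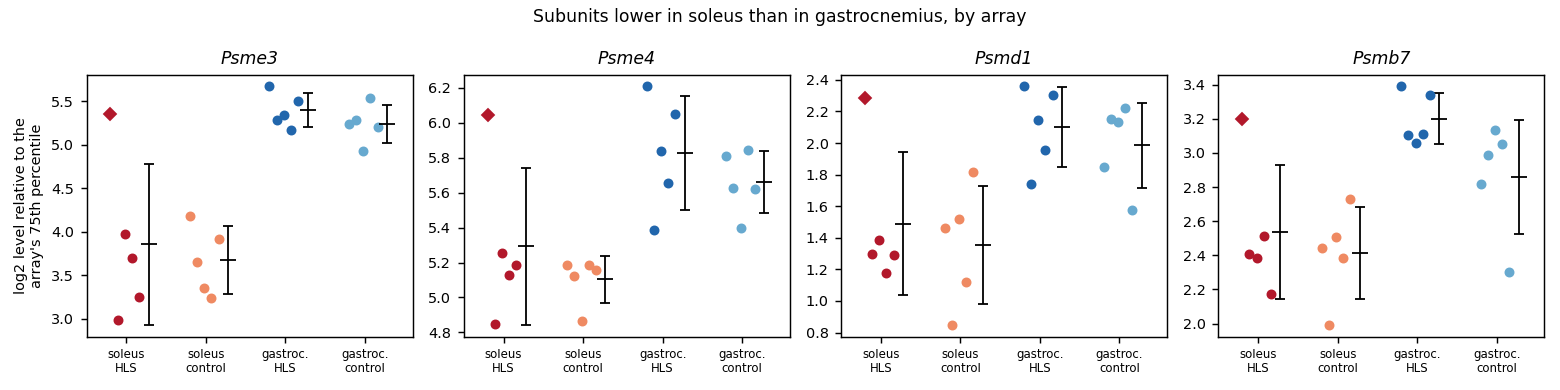
Log2 level relative to the array's 75th percentile of Psme3, Psme4, Psmd1 and Psmb7 on every array, with soleus HLS, soleus control, gastrocnemius HLS and gastrocnemius control from left to right. Points are single arrays, the diamond is soleus HLS 1, and bars are the mean ± SD of 5 arrays; in all 4 panels the diamond lies among the gastrocnemius arrays.

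Among the cap subunits Psmd1, a scaffold of the cap base, differed most. In HLS mice it stood at 2.29, 1.30, 1.39, 1.18 and 1.29 in soleus and at 2.36, 1.74, 2.14, 1.96 and 2.31 in gastrocnemius. Soleus HLS 1 was the only soleus array inside the gastrocnemius range, and the difference was -0.61 ± 0.21 (adjusted p = 0.029 in limma), or -0.81 ± 0.18 without it (adjusted p = 0.0019 in limma). In control mice Psmd1 stood at 1.46, 0.85, 1.52, 1.12 and 1.81 in soleus and at 1.85, 2.15, 2.13, 2.22 and 1.58 in gastrocnemius. These groups overlapped, with a difference of -0.63 ± 0.21 (adjusted p = 0.023 in limma).

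The other cap subunits that passed did so in HLS mice. Psmd11 stood at 4.86, 4.11, 4.22, 4.09 and 4.27 in soleus HLS and at 5.03, 4.41, 4.82, 4.68 and 4.90 in gastrocnemius HLS, a difference of -0.46 ± 0.17 (adjusted p = 0.046 in limma). Psmc6, an ATPase, stood at 4.72, 3.98, 4.00, 4.05 and 3.94 in soleus HLS and at 4.90, 4.23, 4.66, 4.40 and 4.80 in gastrocnemius HLS, a difference of -0.46 ± 0.17 (adjusted p = 0.044 in limma). In both, soleus HLS 1 was the array that lay high in the gastrocnemius range. Without it Psmd11 differed by -0.60 (adjusted p = 0.0077 in limma) and Psmc6 by -0.605 (adjusted p = 0.0059 in limma). Psmd6, a lid subunit, stood at 3.69, 3.32, 3.37, 3.48 and 3.05 in soleus HLS and at 3.88, 3.56, 3.81, 3.90 and 3.98 in gastrocnemius HLS, a difference of -0.44 ± 0.14 (adjusted p = 0.024 in limma, and 0.051 with the animal as a block). Psmd10, a chaperone of cap assembly also known as gankyrin, stood at -0.24, -0.06, -0.21, -0.10 and -0.20 in soleus HLS and at 0.13, 0.18, 0.17, 0.22 and 0.05 in gastrocnemius HLS. Its groups did not overlap, which held for 1 of the 41 subunits on the lower side and for 9.75% of all genes, and the difference was -0.31 ± 0.10 (adjusted p = 0.022 in limma). Without soleus HLS 1 Psmd6 differed by -0.52 (adjusted p = 0.011 in limma) and Psmd10 by -0.29 (adjusted p = 0.042 in limma).

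In control mice the same 4 genes had differences of -0.41 for Psmd11, -0.28 for Psmc6, -0.36 for Psmd6 and -0.17 for Psmd10, none of which passed. That they passed in one condition and not in the other does not by itself show a difference between conditions. The test of that difference gave no call for any subunit. Its intervals, such as -0.55 to 0.45 for Psmd11 and -0.68 to 0.31 for Psmc6, are too wide to exclude one. The second probe of Psmd11, dim and well above background on 12 arrays, ran the other way, at 0.99 in HLS mice, and the mean of both probes was 0.27 and did not pass. Psmd7, the lid partner of Psmd14, was lower in soleus in 10 of 10 mice, with control groups that did not overlap and a difference of -0.32 in control mice (adjusted p = 0.060 in limma, and 0.026 with the animal as a block). Psmd8, another lid subunit, was also lower in 10 of 10 mice, at -0.34 in control mice (adjusted p = 0.11 in limma, and 0.034 with the animal as a block). The share of all genes with the same sign in every mouse was not counted.

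In control mice the core had a median difference of 0.11 over its 18 genes, 14 of them positive, against a median of -0.14 over the 20 cap genes, 14 of them negative, and -0.06 over all genes. In HLS mice the core median was 0.08 and the cap median -0.12, beside -0.03 for all genes. Leaving out any 1 array kept the core median between 0.02 and 0.14 and the cap median between -0.21 and -0.05 in these comparisons. With scan day as a block the cap median turned to 0.11 in control mice, with a core median of 0.33, and to 0.01 in HLS mice, with a core median of 0.16. In control mice this block rests on gastrocnemius HLS 1, the only HLS array of scan day 1. Under quantile normalization the core median was -0.03 in HLS mice and 0.03 in control mice, and the cap median -0.24 and -0.26.

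Psma5 and Psmb10 were the core subunits that passed as higher in soleus. Psma5 stood at 5.23, 5.09, 5.08, 5.21 and 5.10 in soleus control and at 4.56, 4.81, 4.75, 5.06 and 4.92 in gastrocnemius control. Its groups did not overlap, which held for 1 of the 41 subunits on the higher side and for 8.22% of all genes, and the difference was 0.32 ± 0.11 (adjusted p = 0.030 in limma). In HLS mice it stood at 5.30, 5.27, 5.33, 5.18 and 5.35 in soleus and at 5.35, 4.77, 5.23, 5.00 and 5.28 in gastrocnemius, which overlap, a difference of 0.16. Psmb10 was higher in soleus than in gastrocnemius in 10 of 10 mice. Its difference was 0.37 ± 0.14 in HLS mice (adjusted p = 0.056 in limma, and 0.049 with the animal as a block) and 0.41 ± 0.14 in control mice (adjusted p = 0.033 in limma), and the groups overlapped in both conditions. Under quantile normalization Psma5 and Psmb10 no longer passed in control mice, at 0.18 and 0.25.

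Among the core subunits Psmb7 passed as lower in soleus in HLS mice, and without soleus HLS 1 so did Psma4 (-0.44, adjusted p = 0.039 in limma). The difference of Psmb7 in HLS mice was -0.67 ± 0.18 (adjusted p = 0.0088 in limma) and -0.83 ± 0.16 without soleus HLS 1 (adjusted p = 0.00071 in limma). In control mice it was -0.45 ± 0.18 (adjusted p = 0.063 in limma), and Psmb7 was lower in soleus in 9 of 10 mice. With all arrays and without the animal as a block, Psmb10, the inducible counterpart of Psmb7, passed as higher in control mice only. The pair then did not both pass in either condition. Without soleus HLS 1 both passed in HLS mice, Psmb7 as lower and Psmb10 as higher (0.42, adjusted p = 0.044 in limma). The other catalytic pairs did not pass in either condition: Psmb5 differed by 0.06 in HLS mice and 0.04 in control mice, Psmb8 by -0.02 and 0.11, Psmb6 by 0.27 and 0.23, and Psmb9 by 0.24 and 0.52. The Psmb6 values of HLS mice, given above, were all higher in soleus than in gastrocnemius, which held for 1 of the 41 subunits and for 7.97% of all genes (adjusted p = 0.12 in limma).

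Batches limit the comparison of muscles. All gastrocnemius control arrays were scanned on scan day 1 and all soleus control arrays on scan day 2, on separate slides, so muscle and batch cannot be told apart directly in control mice. The counts of mice with a subunit lower or higher in soleus carry this limit for their control mice. With scan day as a block none of the 41 passed in limma in control mice, and Psme3 stood at -1.22 (adjusted p = 0.23). That block links scan day 1 to scan day 2 only through gastrocnemius HLS 1, so these values rest on that array. In HLS mice scan day 2 held 3 soleus and 4 gastrocnemius arrays. Within it Psme3 differed by -1.22 (adjusted p = 0.098 in limma) with soleus HLS 1, and by -1.84 (adjusted p = 0.0062 in limma) without it. The count within that day was 0 with soleus HLS 1 and 5 without it.

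Other cell types moved between the muscles as well. All 4 slow-fibre markers and all 3 adipocyte markers were higher in soleus in both conditions, with median differences of 3.31 and 2.52 in control mice. The adipocyte sum was 4.08 times the percentile intensity on soleus HLS 1, inside the gastrocnemius range, and 5.88 to 32.2 on the other soleus HLS arrays, against 2.06 to 4.31 in gastrocnemius HLS, and 12.8 to 55.9 in soleus control against 2.73 to 5.12 in gastrocnemius control. Of the 20 leukocyte markers 0 were higher and 3 lower in soleus in HLS mice, and 0 higher and 1 lower in control mice. Their part in the subunit differences was not tested.

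The pathway genes differed between the muscles in both directions. In HLS mice 8 of 39 were higher and 8 lower in soleus, and in control mice 8 were higher and 5 lower. The total is 41% of the list in HLS mice, against 30.9% of all genes, and 33.3% in control mice, near the 33.5% of all genes. Nfe2l1 was higher in soleus by 0.38 in HLS mice (adjusted p = 0.0091 in limma) and by 0.50 in control mice (adjusted p = 0.0011 in limma), while Ddi2 was lower by -0.71 (adjusted p = 0.0073 in limma) and -0.86 (adjusted p = 0.0016 in limma). Higher in soleus were further Maff, a small partner of Nfe2l1 on DNA (0.86 in HLS mice and 1.13 in control mice), Akirin2, which carries proteasomes into the nucleus (0.74 and 0.59), and Ubqln1, a ubiquitin shuttle (0.82 and 0.72). With the mean over its probes Ubqln1 was at 0.01 in HLS mice and at -0.07 in control mice and did not pass, and Ddi2 did not pass either, at -0.51 and -0.49. Rps27a, which encodes ubiquitin fused to a ribosomal protein, was higher by 0.51 in HLS mice and 0.50 in control mice.

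Lower in soleus were further Ubqln2, another shuttle (-0.67 in HLS mice and -0.72 in control mice, neither passing with the animal as a block), Faf1, a cofactor of the segregase (-0.45 in HLS mice, and -0.05 without passing as the mean over its probes), Nfe2l3, a relative of Nfe2l1 (-0.40 in HLS mice, not passing with the animal as a block), Uchl5, a deubiquitinase of the cap (-0.42 in control mice), and Psmf1, an inhibitor of the core (-0.32 in control mice, and -0.03 without passing as the mean over its probes). Within scan day 2 in HLS mice Maff, Ddi2, Ubqln2, Faf1, Nfe2l3 and Uchl5 did not pass, and with scan day as a block in control mice Maff, Ddi2, Ubqln1, Ubqln2, Uchl5, Psmf1 and Rps27a did not. Of the 10 antigen-processing genes, 3 were higher in soleus in HLS mice, among them B2m (0.76) and Irf1 (0.48). In control mice 3 were higher, among them B2m (0.94) and H2-K1 (0.66), and Tap1, the peptide transporter, was lower (-0.62).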

How the data were processed

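RNA of 20 muscles was measured on 20 one-colour (Cy3) Agilent mouse arrays from 600 ng of RNA each. Per the file headers, the deposited intensity is the processed signal of Agilent Feature Extraction 9.1.3.1, background-subtracted and detrended within the array and not scaled between arrays. The authors' deposited values of the whole series are the same intensities to within 0.497%.

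Intensities were divided by the array's 75th percentile and taken to log2. Control spots and uneven spots were left out, and probes well above background on at least 4 of 5 arrays of 1 group were kept. The brightest probe stood for each of 25536 genes. limma 3.58.1 (R 4.3.3) was fitted over all 20 arrays with 4 group means, p-values were adjusted by the Benjamini-Hochberg method over all genes, and the threshold was 0.05. The number of arrays limits the precision. Each p-value sets a difference against 1 spread per gene, pooled within all 4 groups and moderated across genes. Comparisons without the soleus HLS group therefore also carry the spread of that group. For Psme3 the standard deviation was 0.92 in soleus HLS and 0.20 to 0.39 in the other groups. Figures used matplotlib 3.10.9.

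The members and all gene lists were chosen with earlier results of these data known. Values on every array are given for subunits that passed (up to 6 at each end of a comparison), otherwise for the 3 with the lowest p, and for the catalytic subunits, Psmc4, Psmd4, Psmd11, Psmd14 and the activators whatever their values; pathway genes are named where they passed, up to 4 at each end, and Nfe2l1 always. Psmd7, Psmd8 and the dim probes of Psmc2, Psmd11 and Psmd12 were named after their values were seen. Both muscles of a mouse carry the same animal number in the labels, and the animal was used as a block; deviations of both muscles of 1 mouse from their group means correlated at -0.35 to 0.17 (n = 10 mice). Replicate numbers do not pair HLS with control mice. Alternatives were quantile normalization, normexp background correction, the mean over probes, slide and scan day as blocks, and leaving out each array. Results of some listed genes, which the counts of their lists include, are not reported here.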

Additional observations from a re-analysis of the deposited data

Results flagged for a closer look

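Among 164 tests of 1 gene in 1 group of 5 arrays, 15 had a highest or lowest array whose gap to the next, divided by the range of the group, exceeded 0.71; chance flags about 5% of such groups. All values are log2 levels relative to the array's 75th percentile. On soleus HLS 1 Psmc6 stood at 4.72, Psmd1 at 2.29 and Psmd11 at 4.86, each above the other arrays of its group. On soleus HLS 4 Psmb6 stood at 5.43, above the others. On soleus control 4 Psmb9 stood at 1.06 and Psmb10 at 3.85, both above the others. Psme4 on soleus control 3 stood at 4.86, below the others, and Psmd3 on soleus control 5 at 5.51, below the others.

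In gastrocnemius, Psma8 stood at -4.26 on gastrocnemius HLS 4 and at -3.98 on gastrocnemius control 4, below the others in both groups. On gastrocnemius HLS 2 Psmb6 stood at 4.61 and Psmc5 at 2.63, both below the others. Psmb4 on gastrocnemius control 2 stood at 4.96, Psmb9 on gastrocnemius control 3 at 0.27 and Psmc5 on gastrocnemius control 4 at 2.95, each above the others.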

How the results depend on the processing

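Over single genes, 877 alternatives kept direction and side of the threshold, 247 lost the call, 103 gained one and 3 changed sign, all 3 with the mean over probes: Ubqln1 at -0.0665 in the control muscles, and Psmd11 at 0.27 and Psmf1 at 0.17 in the HLS muscles; the cause was not tested. For HLS against control, the count of subunits was 2 in soleus with the mean over probes (Psmc2 and Psmd4) and 1 in gastrocnemius with the mean over probes (Psmc2) and with quantile normalization (Psmc1), and 0 to 1 in each muscle with 1 array left out. The gastrocnemius core median was 0.21 with slide as a block and within slide 2, and 0.26 with scan day as a block and within scan day 1, where the median of all subunits was also 0.26. The difference between the muscles in the HLS effect had a count of 0 with any 1 array left out, a cap median of -0.21 and a median of all subunits of -0.20 with slide as a block, and a core median of -0.25 and a median of all subunits of -0.21 with scan day as a block. For soleus HLS against gastrocnemius HLS the count was 13 with quantile normalization, 5 with only these arrays in the fit, 1 with scan day as a block, 0 within scan day 2, 5 there without soleus HLS 1, and 3 to 12 with 1 array left out. For soleus control against gastrocnemius control it was 14 with quantile normalization, 8 with slide as a random block, 0 with scan day as a block (core median 0.33, cap median 0.11), and 2 to 8 with 1 array left out. With the animal as a replicate block it was 8 in HLS mice and 7 in control mice; with the replicate number as a block, which does not pair the mice, it was 0 in both HLS comparisons. Slide as a fixed block could not be fitted for the muscle comparisons. The slide and scan day blocks for gastrocnemius, and the scan day block for the control muscles, rest on gastrocnemius HLS 1. The slide block for soleus rests on soleus control 5. The within-day choice without soleus HLS 1 and the test of every probe were chosen after seeing the data.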
